A study of Mus musculus with 57 samples.

Results

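The genes described here mark the principal cell of the renal collecting duct. They are Avpr2, Aqp2, Aqp3, Scnn1a, Scnn1b, Scnn1g, Hsd11b2, Fxyd4 and Ranbp3l. They were chosen by name, with earlier results of these data known. Each was read from the probe set that the array's annotation pairs with exactly that 1 symbol. Every member had 1 such probe set. They make up 9 of the 19938 genes that the array measures under 1 symbol. A gene was tested where its log2 intensity exceeded 5 in at least 3 arrays, which left 19302 genes, and all 9 members passed.

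Mouse kidneys were profiled on 57 Affymetrix arrays in 19 groups, after ischemia-reperfusion injury (IRI), after sham surgery or without surgery. In IRI the vessels of both kidneys were clamped (28 min) and the kidneys were taken 24 h later, or 4 h later in 1 nephron group. Most arrays carried RNA from translating ribosome affinity purification (TRAP), in which ribosomes holding the fusion protein eGFP-L10a are pulled from a whole-kidney extract with an antibody to GFP. All mice were male. The tag sits in the Rosa26 locus behind the CAGGS promoter and a floxed stop, so that Cre recombinase switches it on in a cell and in all its descendants. The lines with Cre carried six2-CRE (nephron), foxd1-CRE (interstitial), cdh5-CRE (endothelial) or lyz2-CRE (myeloid) with Rosa26-CAGGS-eGFPL10a, on a mixed C57BL/6 and 129 background. Each of them had 3 arrays for IRI at 24 h, 3 for sham and 3 without surgery, and the nephron line had 3 more for IRI at 4 h. The L10a background set came from mice with the tag allele and no Cre (4 IRI, 2 sham arrays). Its labels give the allele as homozygous in 1 field and as Rosa26-CAGGS-eGFPL10a/+ in another, and name podocytes and a subset of collecting duct cells as the cells that this background represents. The wild-type background set came from mice without the tag (4 IRI, 2 sham arrays), called C57BL/6 in 1 field and mixed in another. Whole-kidney total RNA came from littermates with 1 tag allele and no Cre (3 IRI, 3 sham arrays). Mice were 8 weeks old in the 2 background sets, in total RNA and in the nephron line, except the nephron mice without surgery, which were 6. Interstitial and endothelial mice were 6 weeks old. Myeloid IRI mice were 9.5 weeks old and their sham and unoperated mice 7.

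Principal cells reclaim water and sodium from the final urine. Vasopressin binds the V2 receptor on their basolateral face and raises cyclic AMP, which moves aquaporin 2 to the apical membrane and sustains its transcription. Aldosterone acts through the mineralocorticoid receptor on the epithelial sodium channel ENaC, and an enzyme that inactivates glucocorticoids keeps that receptor open to aldosterone. The collecting duct grows from the ureteric bud and not from the Six2-expressing nephron progenitors, so none of the Cre lines is designed to tag it, though the connecting tubule, which shares some of these genes, does come from them. Loss of urine concentrating ability is a known feature of acute kidney injury.

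The median log2 intensity per array ranged from 6.72 to 7.00 for TRAP (51 arrays) but only from 5.46 to 5.74 for total RNA (6 arrays), so levels are compared among TRAP arrays only. Markers of 3 of the Cre lines were highest in their own line. In sham arrays the summed intensity of 12 endothelial markers was 57485 to 61322 in the endothelial line and 1702 to 18206 in the other TRAP groups. That of 12 interstitial markers was 26190 to 31538 in the interstitial line and 2941 to 18396 elsewhere, and that of 12 myeloid markers 53499 to 57332 in the myeloid line and 1649 to 37058 elsewhere. The sum of 17 proximal tubule markers was 95543 to 100413 in the nephron line, below the 108071 to 110765 of the wild-type background. Total RNA IRI replicate 3 stood apart from the other arrays of its group: the injury gene Havcr1 was at 7.73 there on the log2 scale and at 12.01 and 12.58 in the others, whereas Krt20 was at 11.22, with 10.24 and 11.32 in the others. Member results in total RNA, and the list counts there, are given with and without it.

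Differences are log2 fold changes between group means with the standard error (SE) of limma, which was fitted to all arrays at once. A member is said to rise, fall or differ where the Benjamini-Hochberg adjusted p over the 19302 genes was under 0.05. Whether arrays overlapped between groups was read for the members only, without a count over all genes.

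Promoter sequence is shown for the receptor and Ranbp3l, which had the largest changes, and for Aqp2, the classical target of vasopressin and cyclic AMP. Each run holds the 250 bases before the start that the RefSeq promoter table uses, 5′ to 3′ on the coding strand, from RefSeq (GRCm38.p6), with capitals for motif matches. Of the 9 members 7 were found in the promoter table (all but Scnn1a and Hsd11b2). The windows are chrX:73891852-73892101 for Avpr2, chr15:99578806-99579055 for Aqp2 and chr15:8967699-8967948 for Ranbp3l, all on the plus strand. The Aqp2 and Ranbp3l windows end at the gene's outermost start, whereas the Avpr2 window lies inside the gene span given below and so belongs to a later transcript start.
Avpr2: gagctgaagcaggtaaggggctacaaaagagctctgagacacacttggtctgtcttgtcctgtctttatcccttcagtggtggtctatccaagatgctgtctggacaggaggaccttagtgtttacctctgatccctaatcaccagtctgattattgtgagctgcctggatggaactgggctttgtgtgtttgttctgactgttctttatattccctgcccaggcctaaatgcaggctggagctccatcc
Aqp2: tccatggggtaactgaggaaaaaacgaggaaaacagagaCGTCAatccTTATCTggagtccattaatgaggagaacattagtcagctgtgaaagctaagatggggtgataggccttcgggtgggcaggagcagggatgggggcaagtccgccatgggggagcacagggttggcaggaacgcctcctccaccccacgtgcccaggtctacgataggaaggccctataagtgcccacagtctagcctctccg
Ranbp3l: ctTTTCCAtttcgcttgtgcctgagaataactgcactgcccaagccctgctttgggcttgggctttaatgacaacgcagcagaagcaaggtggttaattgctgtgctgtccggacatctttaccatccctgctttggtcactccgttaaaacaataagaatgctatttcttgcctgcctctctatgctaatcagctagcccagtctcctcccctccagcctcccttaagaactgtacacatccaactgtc
Searched on both strands were TGACG, the half-site of the cyclic AMP response element read by CREB proteins, the full element TGACGTCA, which contains it, TGGAAA, the core of the tonicity element read by NFAT5, AGATAA for GATA factors, TGANTCA for AP-1, and the palindromic steroid receptor element (AGAACA and TGTTCT, 3 bases apart). In Aqp2 the capitals mark TGACG at -211 and AGATAA at -202 from the start, both on the minus strand and so printed as their reverse complements. In Ranbp3l they mark TGGAAA at -248, also on the minus strand. The Avpr2 window holds none of these letters. Over 32851 promoter windows of the same length, TGACG was found in 17.8%, TGGAAA in 18.6% and AGATAA in 9.99%. The full element TGACGTCA was found in 1.55%, TGANTCA in 6.75% and the steroid element in 0.00913%, and in none of the 7 members. A match is a description of the letters and not a bound site.

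Before injury, the members stood higher in the L10a background than in any other TRAP group. The comparison with the wild-type background sets kidneys with the tag allele and no Cre against kidneys without the tag. The labels do not settle whether both sets had the same strain background. The injury gene Lcn2 had a mean of 11.87 in L10a sham arrays and of 7.55 in wild-type sham arrays. Tag, any strain difference and the state of the sham kidneys cannot be told apart in this comparison. All 9 members were higher in the L10a sham arrays than in the wild-type sham arrays, where 27.6% of all genes tested were called higher. Differences ran from 0.69 to 4.19, with a median of 2.07 against -0.07 over all genes tested.

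Avpr2 (chrX:73891765-73894428) encodes the V2 vasopressin receptor. Its log2 intensity was 11.78 and 11.62 in the L10a sham arrays and 7.57 and 7.46 in the wild-type sham arrays, a difference of 4.19 ± 0.31 (SE, adjusted p = 4.8e-15). Below the L10a set came the myeloid line with 9.58 ± 0.16 (SD, n = 3), the endothelial line with 8.35 ± 0.32, the nephron line with 8.20 ± 0.10, the interstitial line with 7.92 ± 0.56 and the wild-type set with 7.51. The L10a and myeloid arrays were each separated from the next group, and each later neighbour in that order overlapped the one before.

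Aqp2 (chr15:99579056-99584545), the apical water channel that vasopressin controls, was at 12.85 and 12.83 in L10a sham arrays and at 9.71 and 9.56 in wild-type sham arrays (3.20 ± 0.31, adjusted p = 1.2e-11). The myeloid line followed with 11.82 ± 0.09 (SD, n = 3) and the endothelial line with 10.65 ± 0.46. Nephron (9.88), interstitial (9.72) and wild-type means overlapped in their arrays. Aqp3 (chr4:41092724-41098183), the basolateral channel through which that water leaves the cell, was at 12.23 and 12.20 against 9.37 and 9.30 (2.89 ± 0.34, adjusted p = 1.5e-09). It came next in the myeloid (10.27 ± 0.15) and nephron (9.82 ± 0.14) lines and was lowest in the interstitial line (8.67 ± 0.11). Fxyd4 (chr6:117933558-117937714) encodes CHIF, a small regulator of the sodium pump in collecting duct. Its 11.84 and 11.97 in L10a sham arrays stood against 7.97 and 7.63 in the wild-type arrays (4.11 ± 0.27, adjusted p = 1.1e-16). The myeloid (10.57 ± 0.14), endothelial (9.25 ± 0.12) and interstitial (8.31 ± 0.18) lines followed in order without overlap, and nephron arrays overlapped those of the wild-type set.

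The 3 subunits of ENaC differed less between the backgrounds. Scnn1a (chr6:125314271-125344943), the alpha subunit that the channel cannot do without, was at 11.36 and 11.84 in L10a sham arrays and at 10.92 and 10.90 in wild-type arrays (0.69 ± 0.21, adjusted p = 0.0046). This call was lost without L10a sham replicate 2 (adjusted p = 0.13) and after quantile normalization (0.058). Scnn1b (chr7:121865038-121918728), the beta subunit, was at 11.35 and 11.37 against 9.90 and 10.15 (1.34 ± 0.34, adjusted p = 0.0011). Scnn1g (chr7:121734420-121768482), the gamma subunit, was at 12.03 and 11.93 against 10.48 and 10.59 (1.45 ± 0.31, adjusted p = 9.4e-05). For Scnn1b and Scnn1g the wild-type set came second in the order, and for Scnn1a it came after the nephron line, whose 10.98 to 11.14 did not overlap it. The endothelial line was the lowest for all 3 subunits, with means of 9.36, 8.77 and 9.37, and its Scnn1g arrays overlapped the interstitial ones.

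Hsd11b2 (chr8:105518746-105523988) encodes 11β-hydroxysteroid dehydrogenase type 2, the enzyme that inactivates glucocorticoids. It was at 12.80 and 12.93 in L10a sham arrays and at 10.80 and 10.78 in wild-type arrays (2.07 ± 0.46, adjusted p = 0.00019). The myeloid line followed with 11.98 ± 0.13, then the nephron (11.12), interstitial (11.11), wild-type (10.79) and endothelial (10.78) means, each overlapping its neighbour in that order. Ranbp3l (chr15:8967949-9067335) encodes a Ran-binding protein related to RanBP3, an export cofactor. It was at 12.00 and 11.98 against 10.92 and 10.90 (1.08 ± 0.39, adjusted p = 0.018), a call lost without any 1 of these 4 arrays (adjusted p from 0.062 to 0.072) and after quantile normalization (0.066). Its order differed from the rest: wild-type arrays came second, then the interstitial (10.70 ± 0.12), nephron (10.21 ± 0.31), myeloid (9.89 ± 0.43) and endothelial (8.76 ± 0.69) lines.

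Other cell type markers differed between the backgrounds as well. Of 11 podocyte markers 10 were higher in L10a sham arrays, with summed intensities of 15665 to 19031 against 6666 to 8572, and all 17 proximal tubule markers were lower (33698 to 49705 against 108071 to 110765), where 23.0% of all genes were lower. Of 12 interstitial markers 10 were lower and none higher (4045 to 4591 against 17843 to 18396), and of 12 myeloid markers 8 were lower and 1 higher (1649 to 1748 against 3644 to 3691). Of 13 tubular injury genes 5 were higher and 1 lower (19636 to 25202 against 12712 to 14242). Of 17 intercalated cell markers 5 were higher and 8 lower, with overlapping sums (23186 to 24744 against 23137 to 26011). The summed intensity of the 9 members was 40021 and 41235 in L10a sham arrays and 9977 and 10005 in wild-type arrays. The same wild-type arrays serve in the comparisons with the Cre lines. The part of these other cell types in the members' differences was not tested.

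Against the same wild-type sham arrays, the myeloid line was higher in 5 members and lower in 2, where 28.3% of all genes were called higher and 24.8% lower. Fxyd4 (2.77 ± 0.25), Aqp2 (2.18 ± 0.29), Avpr2 (2.07 ± 0.28), Hsd11b2 (1.19 ± 0.42) and Aqp3 (0.94 ± 0.31) were higher, and Ranbp3l (-1.02 ± 0.36) and Scnn1a (-0.61 ± 0.19) were lower. Without wild-type sham replicate 2 only 4 of these 7 members were called. The endothelial line was higher in Fxyd4 (1.45 ± 0.25), Aqp2 (1.02 ± 0.29) and Avpr2 (0.83 ± 0.28) and lower in Ranbp3l (-2.15 ± 0.36), Scnn1a (-1.55 ± 0.19), Scnn1b (-1.26 ± 0.31) and Scnn1g (-1.16 ± 0.28), beside 29.5% and 26.4% of all genes. So the water channel Aqp2, the receptor and Fxyd4 stood above untagged RNA in both lines, while no ENaC subunit was called higher in either. The endothelial difference of Avpr2 kept its call in 10 of 12 alternatives (0.65 to 0.94). Another probe set, among these, could not change its value.

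In the nephron line 1 member was higher, Avpr2 (0.69 ± 0.28, adjusted p = 0.042), where 28.8% of genes were called higher and 19.5% lower. That call was lost without any 1 of the 5 arrays. In a fit of these groups alone 6 members were called, 3 higher and 3 lower. That fit called 10547 of all genes in either direction, against 9320 in the full fit. In the interstitial line 2 were lower, Scnn1g (-0.75 ± 0.28) and Scnn1a (-0.55 ± 0.19), beside 22.2% of genes higher and 19.8% lower. No member was called there without interstitial sham replicate 3 or without wild-type sham replicate 1 or 2. Compared with L10a sham arrays, 9 members were lower in the nephron, in the interstitial and in the endothelial line, and 8 in the myeloid line, where Hsd11b2 was at -0.88 ± 0.42 (adjusted p = 0.10). These comparisons called 23.1%, 23.8%, 18.8% and 20.8% of all genes lower. All comparisons with a background share its 2 sham arrays.

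**Figure D1:**
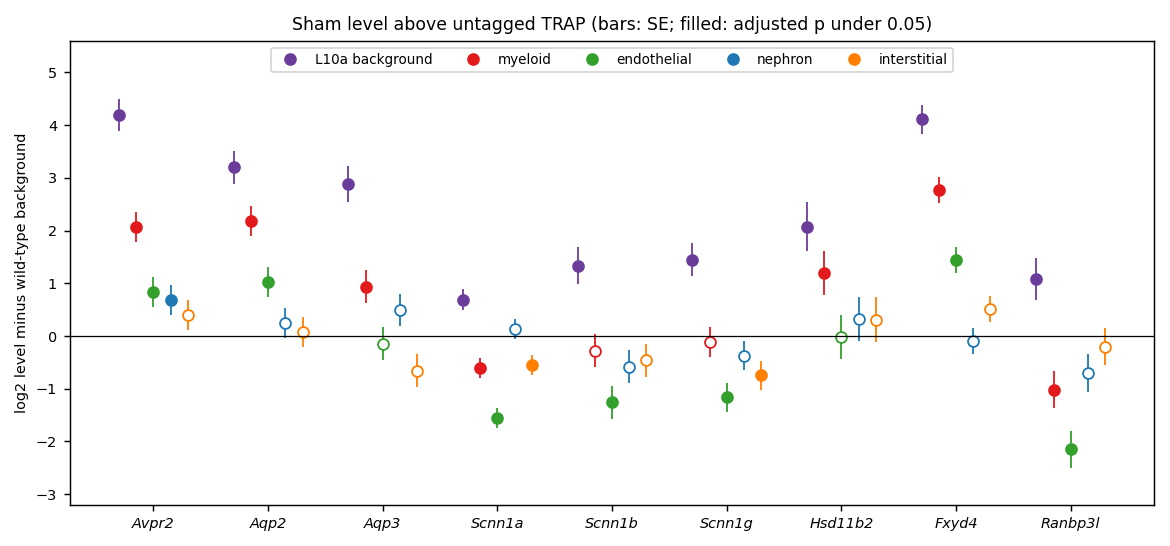
Difference in log2 intensity of each principal cell gene between the sham arrays of the L10a background (n = 2) or a Cre line (n = 3) and the wild-type background (n = 2), with SE bars. Filled points passed an adjusted p of 0.05. The L10a points lie above 0 for all 9 genes, from 0.69 for Scnn1a to 4.19 for Avpr2, and the endothelial points for Ranbp3l and the ENaC subunits lie lowest.

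In the L10a background 24 h after IRI, 7 of the 9 members fell, where 19.4% of all genes tested fell and 19.0% rose. Ranbp3l and Avpr2 had the largest changes of the members, to measured intensities 41.7-fold and 17.0-fold below sham. Hsd11b2, Scnn1g, Aqp2, Aqp3 and Fxyd4 fell between 1.54-fold and 2.86-fold. The median over the members was -1.12 against 0.08 over all genes. In bulk RNA such as this, fewer cells of a type and less RNA per cell cannot be told apart.

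Avpr2 went from 11.78 and 11.62 in sham arrays to 7.80, 7.44, 7.61 and 7.61 after IRI. All 4 IRI arrays were far below both sham arrays and around the level of the wild-type sham arrays. Avpr2 thus fell by 4.09 ± 0.27 (SE, adjusted p = 1.1e-15). Ranbp3l went from 12.00 and 11.98 to 6.80, 6.43, 6.68 and 6.52, below each wild-type sham array by over 4 log2 units. It fell by 5.38 ± 0.34 (adjusted p = 2.4e-16). The medians of these IRI arrays were 6.81 to 6.91, and 33.0% of the genes tested had a lower mean than Ranbp3l there. The files used here give no call of signal over background, so this fold compares measured intensities, the lower of which may hold background alone.

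The water channels kept high levels. Aqp2 went from 12.85 and 12.83 to 11.99, 11.53, 11.74 and 11.63, and Aqp3 from 12.23 and 12.20 to 11.61, 11.20, 11.22 and 11.32. For both, no IRI array reached a sham array, and replicate 1 was the highest of the 4. Aqp2 fell by 1.12 ± 0.27 (adjusted p = 0.00092) and Aqp3 by 0.88 ± 0.30 (adjusted p = 0.016). The Aqp3 call was lost without sham replicate 1 (adjusted p = 0.10) or sham replicate 2 (0.071). Fxyd4, the pump regulator, was at 11.84 and 11.97 in sham arrays and at 11.39, 11.23, 11.28 and 11.24 after IRI, again without overlap. It fell by 0.62 ± 0.23 (adjusted p = 0.032), a call lost without IRI replicate 2 or 4 or either sham replicate (adjusted p from 0.055 to 0.15).

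Of the ENaC subunits 1 passed, and differences between subunits were not tested. Scnn1g went from 12.03 and 11.93 to 11.26, 10.43, 10.60 and 10.48 and fell by 1.29 ± 0.27 (adjusted p = 0.00012). Scnn1b was at 11.35 and 11.37 in sham and at 10.87, 10.67, 10.64 and 10.75 in IRI arrays, a difference of -0.63 ± 0.30 that did not pass (adjusted p = 0.091) although the arrays did not overlap. In a fit of these 2 groups alone it passed (adjusted p = 0.00061). Scnn1a was at 11.36 and 11.84 in sham and at 11.77, 11.77, 11.46 and 11.57 in IRI arrays, which overlapped, with a difference of 0.04 and a 95% interval from -0.32 to 0.40. Hsd11b2 went from 12.80 and 12.93 to 11.57, 11.37, 11.11 and 11.36, without overlap, and fell by 1.51 ± 0.40 (adjusted p = 0.0022).

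Markers of the neighbouring cells give the setting of these changes. The 11 podocyte markers, the other cell type named in the labels of this set, had summed intensities of 15665 to 19031 in sham and 15169 to 20793 in IRI arrays, with 2 markers higher and 1 lower. Intercalated cell markers, of the other cell type of the collecting duct, were lower in 4 of 17 and higher in 2, with sums of 23186 to 24744 and 18657 to 19476. Thick ascending limb markers were lower in 11 of 12 (24736 to 27787 against 13006 to 15368), and tubular injury genes were higher in 11 of 13 (19636 to 25202 against 46656 to 49248). The summed intensity of the 9 members went from 40021 and 41235 to between 16761 and 21075. The injury gene Lcn2 was already at 12.10 and 11.64 in the 2 L10a sham arrays, against 7.51 to 10.76 in the sham arrays of the other TRAP groups. The part of these values in the members' changes was not tested.

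**Figure D2:**
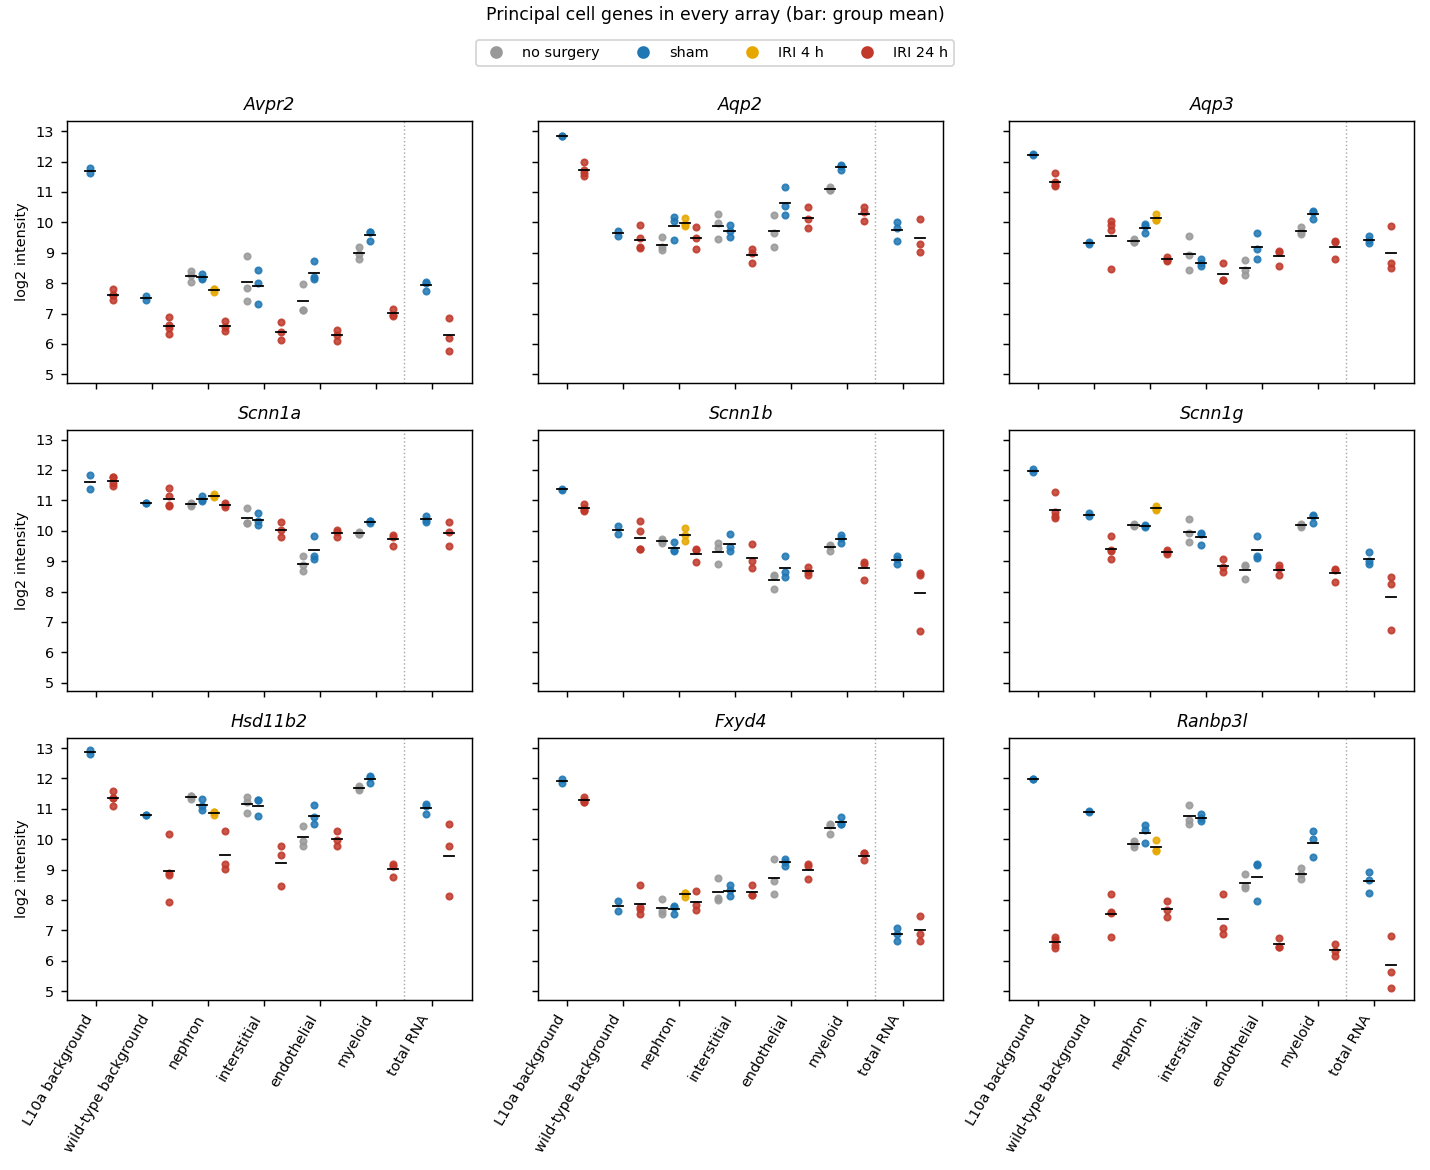
Log2 intensity of the 9 principal cell genes in every array, by line (x axis) and treatment (colour), with a bar at each group mean. The dotted line sets off the whole-kidney total RNA arrays, whose scale differs. L10a sham arrays are the highest for every gene except Scnn1a, where they overlap the L10a IRI arrays, and Avpr2 and Ranbp3l drop in every line.

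In total RNA of whole kidney, which needs no tag, the fall of the receptor and Ranbp3l kept its call in every alternative. The channel subunits and the enzyme were called lower too, but each lost its call in at least 1 alternative. There 6 of 9 members fell after IRI, where 15.7% of all genes fell. Avpr2 was at 7.75, 8.01 and 8.03 in sham arrays and at 6.87, 6.19 and 5.77 after IRI, and fell by 1.66 ± 0.25 (adjusted p = 2.3e-06). Ranbp3l was at 8.24, 8.92 and 8.67 and then at 6.80, 5.64 and 5.11, and fell by 2.76 ± 0.32 (adjusted p = 7.6e-09). Neither gene's groups overlapped. Without IRI replicate 3 Avpr2 was at -1.40 (adjusted p = 9.1e-05) and Ranbp3l at -2.39 (3.8e-07), and 5 members were called in all.

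Of the other members, 3 took their lowest value in IRI replicate 3, the array that stood apart. Scnn1b was at 8.92, 9.07 and 9.16 in sham and 8.59, 8.54 and 6.69 after IRI (-1.11 ± 0.28, adjusted p = 0.0021). Hsd11b2 was at 10.84, 11.09 and 11.17 and then at 10.49, 9.76 and 8.12 (-1.57 ± 0.38, adjusted p = 0.0012). Scnn1g was at 8.91, 8.99 and 9.29 and then at 8.47, 8.26 and 6.74 (-1.24 ± 0.25, adjusted p = 0.00015). Without that array Scnn1g fell by 0.70 (adjusted p = 0.0093), and Scnn1b (-0.48, adjusted p = 0.12) and Hsd11b2 (-0.90, 0.055) did not pass. Scnn1a went from 10.27, 10.36 and 10.50 to 9.49, 9.97 and 10.28, which overlapped, and fell by 0.46 ± 0.17 (adjusted p = 0.032). Without IRI replicate 3 it fell by 0.65 (adjusted p = 0.0051). Its call was lost without IRI replicate 1 (-0.25, adjusted p = 0.26), sham replicate 2 (0.066) or sham replicate 3 (0.12), and after quantile normalization (0.085).

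Aqp2, Aqp3 and Fxyd4 did not pass in total RNA, and all 3 were highest among the IRI arrays in replicate 3. Aqp2 was at 9.38, 9.80 and 10.02 in sham and at 9.27, 9.04 and 10.10 in IRI arrays (-0.26, 95% interval -0.78 to 0.26). Aqp3 was at 9.31, 9.41 and 9.56 and at 8.49, 8.67 and 9.87 (-0.42, adjusted p = 0.26), and without replicate 3 it fell by 0.85 (adjusted p = 0.018), while Aqp2 was at -0.58 (0.11) and Fxyd4 at -0.11 (0.81). Fxyd4 was between 6.64 and 7.48 in all 6 arrays (0.13, 95% interval -0.31 to 0.58). When only the 6 total RNA arrays were fitted, 2 members were called in place of 6, beside 681 of all genes in place of 6072.

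In the wild-type background 4 members fell, where 17.7% of all genes fell. Avpr2 was at 7.57 and 7.46 in sham arrays and at 6.31, 6.61, 6.89 and 6.51 after IRI (-0.93 ± 0.27, adjusted p = 0.0049), a call lost without sham replicate 1 (0.057). Ranbp3l was at 10.92 and 10.90 and then at 8.21, 7.60, 6.79 and 7.58 (-3.36 ± 0.34, adjusted p = 7.3e-11). Hsd11b2 was at 10.80 and 10.78 and then at 8.82, 10.19, 8.89 and 7.94 (-1.83 ± 0.40, adjusted p = 0.00023). Its IRI arrays spread over more than 2 log2 units, with replicate 2 nearest to sham. Scnn1g was at 10.48 and 10.59 and then at 9.33, 9.83, 9.38 and 9.07 (-1.13 ± 0.27, adjusted p = 0.00059). For these 4 genes every IRI array was below both sham arrays. The other 5 overlapped and lay between -0.25 for Scnn1b and 0.21 for Aqp3.

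The nephron line had 5 members lower 24 h after IRI, where 14.7% of all genes fell. Avpr2 went from 8.12, 8.31 and 8.17 to 6.43, 6.57 and 6.75 (-1.62 ± 0.25, adjusted p = 2.6e-06), and Ranbp3l from 9.86, 10.31 and 10.45 to 7.43, 7.69 and 7.97 (-2.51 ± 0.32, adjusted p = 3.6e-08). Aqp3 went from 9.66, 9.88 and 9.94 to 8.87, 8.75 and 8.72 (-1.05 ± 0.28, adjusted p = 0.0032). Scnn1g went from 10.16, 10.18 and 10.14 to 9.23, 9.36 and 9.31 (-0.86 ± 0.25, adjusted p = 0.0071). All of these were separated between the groups, as was Hsd11b2, which went from 10.96, 11.31 and 11.08 to 9.02, 10.26 and 9.20 (-1.62 ± 0.38, adjusted p = 0.00075). Aqp2 (-0.39), Scnn1a (-0.20), Scnn1b (-0.20) and Fxyd4 (0.22) did not pass.

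In the interstitial line 5 members fell beside 19.9% of all genes. Ranbp3l went from 10.82, 10.70 and 10.59 to 8.19, 6.89 and 7.09 (-3.32 ± 0.32, adjusted p = 3.5e-11), with IRI replicate 1 above the others. Hsd11b2 went from 11.28, 11.28 and 10.76 to 9.77, 8.45 and 9.46 (-1.88 ± 0.38, adjusted p = 8e-05), and Avpr2 from 8.43, 8.00 and 7.32 to 6.71, 6.38 and 6.12 (-1.51 ± 0.25, adjusted p = 5.2e-06). Both were separated. Scnn1g went from 9.89, 9.92 and 9.54 to 8.81, 8.63 and 9.08 (-0.94 ± 0.25, adjusted p = 0.0022). Aqp2 went from 9.70, 9.93 and 9.52 to 9.12, 8.67 and 8.98 (-0.79 ± 0.26, adjusted p = 0.012), a call lost without IRI replicate 2 (0.066) or sham replicate 2 (0.059). Aqp3, Scnn1a, Scnn1b and Fxyd4, from -0.45 to -0.04, overlapped and did not pass.

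In the endothelial line 3 members fell and 1 rose, beside 21.7% of all genes lower and 21.1% higher. Avpr2 went from 8.19, 8.72 and 8.13 to 6.31, 6.45 and 6.08 (-2.07 ± 0.25, adjusted p = 8.5e-09), and Ranbp3l from 7.96, 9.18 and 9.14 to 6.45, 6.74 and 6.47 (-2.20 ± 0.32, adjusted p = 2.4e-07). Neither overlapped between the groups. Scnn1g went from 9.17, 9.83 and 9.11 to 8.76, 8.53 and 8.87 (-0.65 ± 0.25, adjusted p = 0.034), a call lost without IRI replicate 1 (0.057), IRI replicate 2 (0.13) or sham replicate 2 (0.25), and after quantile normalization (0.08). Scnn1a was the member that rose, from 9.17, 9.82 and 9.08 to 10.04, 9.95 and 9.80 (0.57 ± 0.17, adjusted p = 0.0054). Sham replicate 2 overlapped the IRI arrays, and the call was lost without sham replicate 3 (0.43, adjusted p = 0.061). Hsd11b2 (-0.77 ± 0.38, adjusted p = 0.096), Aqp2 (-0.51), Aqp3 (-0.30), Fxyd4 (-0.26) and Scnn1b (-0.10) did not pass.

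The myeloid line was the group in which all 9 members fell, where 14.6% of all genes fell. Ranbp3l went from 9.42, 10.25 and 9.99 to 6.17, 6.56 and 6.32 (-3.54 ± 0.32, adjusted p = 5.8e-12) and Hsd11b2 from 11.84, 12.03 and 12.08 to 9.11, 9.18 and 8.76 (-2.96 ± 0.38, adjusted p = 3.2e-08). Avpr2 went from 9.40, 9.67 and 9.68 to 6.97, 7.14 and 6.91 (-2.58 ± 0.25, adjusted p = 7.2e-11). Every member was separated between the groups, Scnn1a by the smallest margin (10.27 to 10.32 against 9.49 to 9.85). How many of all genes were so separated was not counted.

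Among the channels, Scnn1g went from 10.24, 10.48 and 10.53 to 8.71, 8.75 and 8.33 (-1.82 ± 0.25, adjusted p = 1.7e-07). Aqp2 went from 11.72, 11.90 and 11.84 to 10.03, 10.33 and 10.49 (-1.53 ± 0.26, adjusted p = 6.5e-06). The remaining members fell by less: Fxyd4 by 1.11 ± 0.22, Aqp3 by 1.09 ± 0.28, Scnn1b by 0.98 ± 0.28 and Scnn1a by 0.58 ± 0.17. Without IRI replicate 2 Scnn1a (adjusted p = 0.057) and Scnn1b (0.051) did not pass. Thick ascending limb markers were lower in 12 of 12 in the same arrays (12093 to 14454 in sham, 6072 to 6588 after IRI) and proximal tubule markers in 14 of 17 (29392 to 53220 and 16401 to 16969). Their part in the result was not tested. The IRI mice of this line were 9.5 weeks old and the sham mice 7, and age and injury cannot be told apart here.

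Across these 7 comparisons, which share no arrays, Avpr2, Scnn1g and Ranbp3l were lower in 7 and Hsd11b2 in 6. Aqp2 and Aqp3 were lower in 3 each, and Scnn1b and Fxyd4 in 2 each. Scnn1a was lower in 2 and higher in 1. The smallest change of Ranbp3l was -2.20, in the endothelial line, and that of Avpr2 -0.93, in the wild-type background. Aqp2, in contrast, ranged from -1.53 to -0.21 and Fxyd4 from -1.11 to 0.22.

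**Figure D3:**
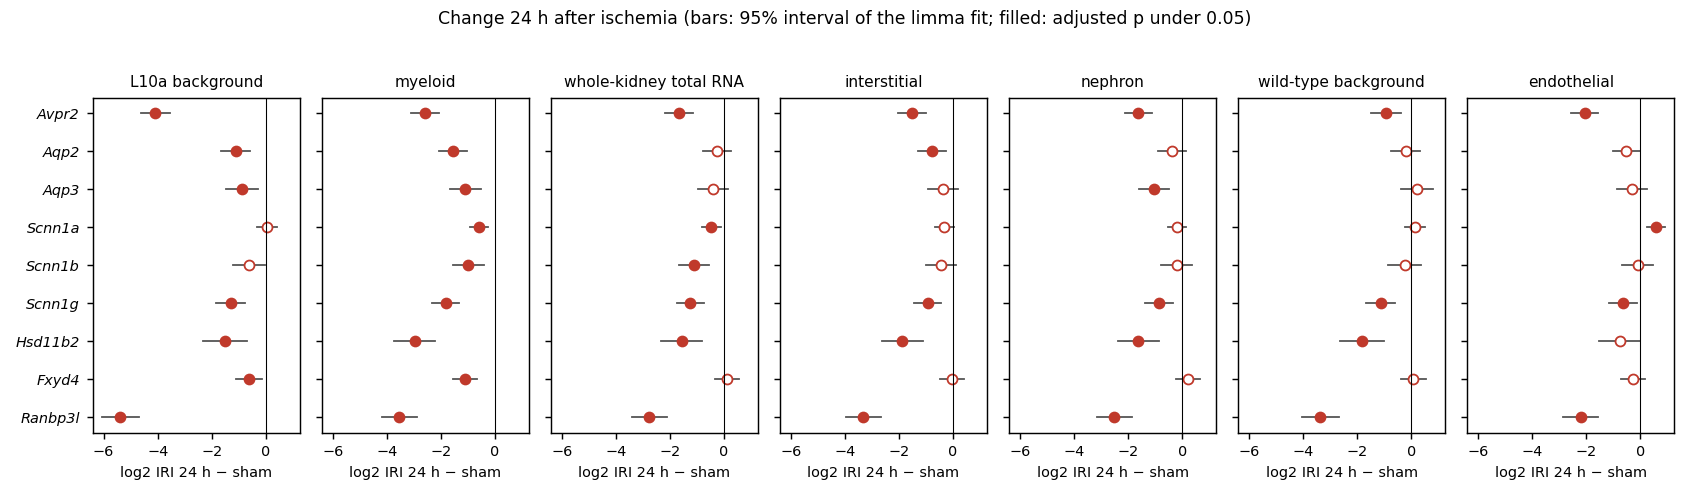
Log2 difference between IRI at 24 h and sham for each principal cell gene in each set of arrays, with 95% intervals of the limma fit. Filled points passed an adjusted p of 0.05. Avpr2, Scnn1g and Ranbp3l are filled in all 7 panels, and Scnn1a in the endothelial panel is the 1 filled point to the right of 0 (0.57).

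On the log2 scale, Avpr2 and Ranbp3l fell more in the L10a background than in every other set, and among TRAP sets both started highest there. Total RNA was not purified on ribosomes and has another intensity scale. The part of this in the differences against it was not tested. Mean Avpr2 went from 11.70 to 7.62 in L10a arrays, whereas in the other TRAP sets sham means were 7.51 to 9.58 and IRI means 6.28 to 7.01. At those IRI means 25.8% to 39.9% of the genes tested lay lower. Mean Ranbp3l went from 11.99 to 6.61 in L10a arrays, and from between 8.76 and 10.91 to between 6.35 and 7.70 in the other TRAP sets. A lower start leaves less room to fall before background is reached, and the part of the starting level in these differences was not tested. For Avpr2 the difference between responses (L10a minus the other set) was -3.16 ± 0.38 against the wild-type background (adjusted p = 3.8e-08), where 13.7% of all genes had a lower response in the L10a set. It was -2.57 ± 0.37 against the interstitial line, -2.47 ± 0.37 against the nephron line, -2.43 ± 0.37 against total RNA, -2.02 ± 0.37 against the endothelial line and -1.51 ± 0.37 against the myeloid line. For Ranbp3l it was -3.18 ± 0.46 against the endothelial line, -2.87 ± 0.46 against the nephron line and -2.62 ± 0.46 against total RNA. Against the interstitial line it was -2.06 ± 0.46, against the wild-type background -2.02 ± 0.48 and against the myeloid line -1.84 ± 0.46. The largest adjusted p among these 12 was 0.0038. The other comparisons called 11.3% (nephron), 8.84% (interstitial), 6.57% (endothelial), 9.38% (myeloid) and 9.59% (total RNA) of genes lower. All 6 share the L10a arrays. Without total RNA IRI replicate 3 the differences against total RNA were -2.69 for Avpr2 (adjusted p = 6.6e-07) and -2.99 for Ranbp3l (3.4e-06).

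The other 7 members were called in none of the 6, which does not show that they responded alike. Scnn1a was called against total RNA once IRI replicate 3 was left out (0.69, adjusted p = 0.034). Hsd11b2 against the myeloid line came to 1.45 (95% interval 0.34 to 2.56, adjusted p = 0.061), Fxyd4 against the nephron line to -0.85 (-1.50 to -0.20, adjusted p = 0.052) and Aqp3 against the wild-type background to -1.09 (-1.93 to -0.24, adjusted p = 0.057). For Scnn1g the intervals against the 6 sets reached from -1.38 to 1.27. In a fit of the L10a and myeloid groups alone, 5 members differed in place of 2, beside 5743 of all genes in place of 3359.

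After IRI, 8 members were still higher in L10a than in wild-type arrays, where 26.1% of genes were higher and 20.4% lower, and Ranbp3l was lower. Fxyd4 was higher by 3.41 ± 0.19 (adjusted p = 1.2e-18), Hsd11b2 by 2.39 ± 0.33, Aqp2 by 2.29 ± 0.22, Aqp3 by 1.80 ± 0.24, Scnn1g by 1.29 ± 0.22, Avpr2 by 1.03 ± 0.22, Scnn1b by 0.96 ± 0.24 and Scnn1a by 0.59 ± 0.15. Ranbp3l differed by -0.94 ± 0.28 (adjusted p = 0.0043). Its 6.43 to 6.80 in L10a arrays overlapped the wild-type range of 6.79 to 8.21 at the edge. The endothelial (6.45 to 6.74) and myeloid (6.17 to 6.56) arrays after IRI lay in or below that L10a range.

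The nephron line is the only one with an earlier time point. The sample numbering sets its 4 h arrays apart from all others, so time and a difference in handling cannot be told apart. At 4 h none of the 9 members passed against sham, where 10.8% of all genes were lower and 7.60% higher by limma, and 2 members had an unadjusted p under 0.05. Scnn1g was at 10.70, 10.82 and 10.68 at 4 h, above its 10.14 to 10.18 in sham (0.57 ± 0.25, adjusted p = 0.11). Fxyd4 was at 8.23, 8.11 and 8.23, above 7.53 to 7.81 (0.48 ± 0.22, adjusted p = 0.13). Avpr2 was at 7.70, 7.82 and 7.81, below 8.12 to 8.31 (-0.42 ± 0.25, adjusted p = 0.28). In a fit of these 2 groups alone, 5 members passed: Scnn1g (adjusted p = 0.00052), Avpr2 (0.0042), Fxyd4 (0.0044), Scnn1b (0.032) and Aqp3 (0.039), of which only Avpr2 was lower. That fit called 5561 of all genes in either direction, against 3545 in the full fit.

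From 4 h to 24 h 5 members fell, beside 12.7% of all genes. Ranbp3l was at 9.98, 9.63 and 9.60 at 4 h and at 7.43 to 7.97 at 24 h, and fell by 2.04 ± 0.32 (adjusted p = 2.4e-06). Scnn1g fell by 1.43 ± 0.25 (adjusted p = 1.6e-05), Hsd11b2, at 10.80, 10.89 and 10.90 at 4 h, by 1.37 ± 0.38 (0.0043), Aqp3, at 10.27, 10.09 and 10.06 at 4 h, by 1.36 ± 0.28 (0.00016), and Avpr2 by 1.20 ± 0.25 (0.00027). Except for Fxyd4, every member was lower in all 24 h arrays than in all 4 h arrays. The share of all genes with such a separation was not counted. Aqp2 (-0.50), Scnn1a (-0.31), Scnn1b (-0.63) and Fxyd4 (-0.26) did not pass. The sham arrays were taken at 24 h.

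**Figure D4:**
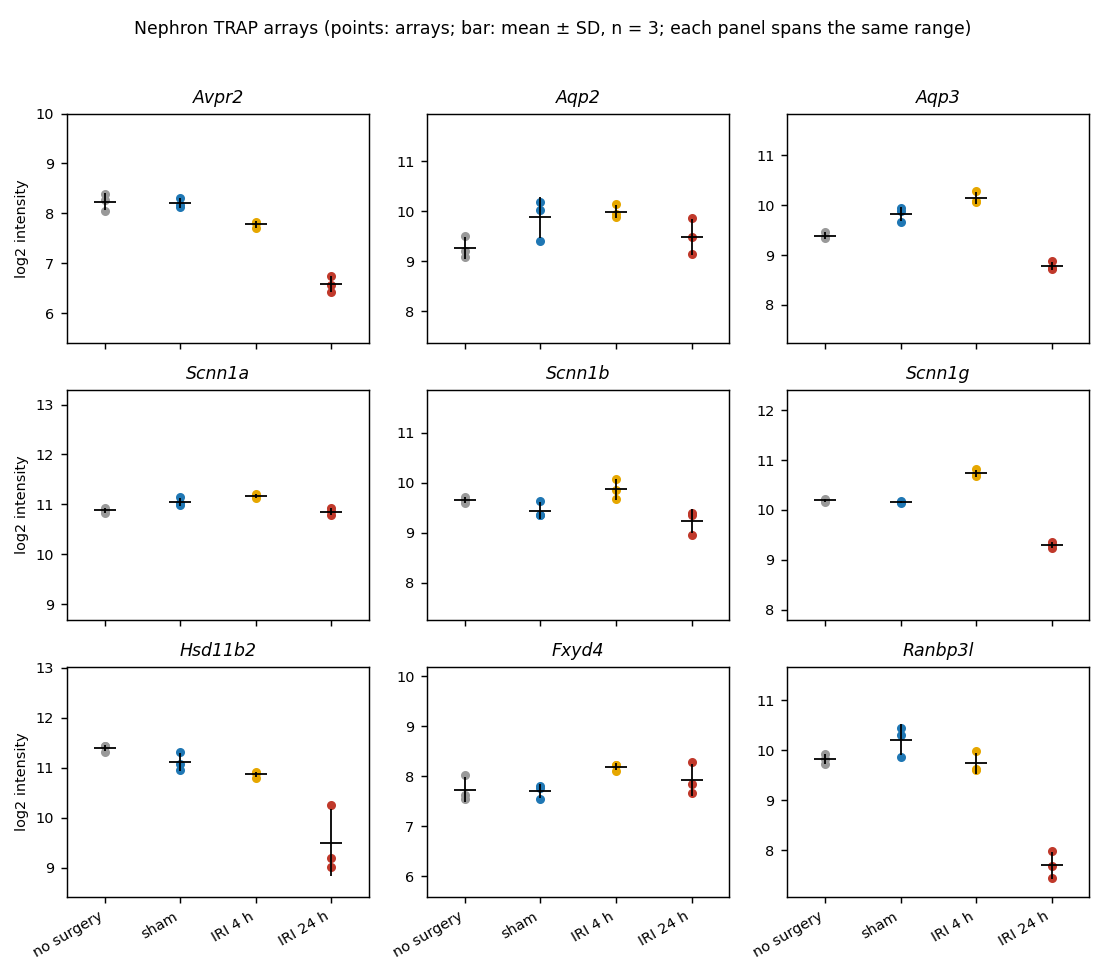
Log2 intensity of the principal cell genes in nephron TRAP arrays without surgery, after sham surgery, and 4 h and 24 h after IRI (points are arrays, lines the mean ± SD, n = 3). Scnn1g is higher at 4 h (10.68 to 10.82) than in sham (10.14 to 10.18), which did not pass in the full fit, and lower at 24 h (9.23 to 9.36). Every mean except those of Aqp2 and Fxyd4 is lowest at 24 h.

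Sham surgery itself gave no member that passed in any of the 4 Cre lines by limma. The unadjusted p was under 0.05 for 1 member in the nephron line, 0 in the interstitial, 6 in the endothelial and 4 in the myeloid line. These comparisons called 1.74%, 10.1%, 0.850% and 1.58% of all genes in either direction. In endothelial arrays all 9 differences were positive, with a median of 0.66. Aqp2 was at 9.66, 10.25 and 9.20 without surgery and at 10.25, 11.16 and 10.55 after sham (0.95 ± 0.26, adjusted p = 0.066). Avpr2 was at 7.10, 7.97 and 7.13 and at 8.19, 8.72 and 8.13 (0.94 ± 0.25, adjusted p = 0.066). In myeloid arrays all 9 were positive too, with a median of 0.39, led by Ranbp3l, at 8.68, 8.85 and 9.06 without surgery and 9.42, 10.25 and 9.99 after sham (1.03 ± 0.32, adjusted p = 0.10). In the nephron line Aqp2 was at 9.09, 9.19 and 9.51 and at 9.41, 10.03 and 10.19 (0.61 ± 0.26, adjusted p = 0.29), and the interstitial differences lay between -0.29 and 0.25. The nephron mice without surgery were 6 weeks old and the sham mice 8.

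Lists of other genes of the same pathways were read by counts and medians only. In L10a arrays after IRI, 18 of 24 transcription factors and ureteric lineage genes of the collecting duct fell and 3 rose, with a median of -0.84. Vasopressin and cyclic AMP signalling was mixed, with 9 of 25 lower and 6 higher, and so were the regulators of aldosterone and ENaC, with 9 of 27 lower and 7 higher. The background in this comparison was 19.4% lower and 19.0% higher, with a median of 0.08. In L10a against wild-type sham arrays 21 of those 24 lineage genes were higher by limma and the other 3 did not pass, beside 27.6% of all genes higher.

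Of the lineage genes Elf5, an ETS factor of principal cells, fell by 2.31 ± 0.15 (adjusted p = 3.1e-16), with values of 0.00 in total RNA and 0.07 in the nephron line that did not pass. Sim1 fell by 1.79 ± 0.26, and also by 1.44 in total RNA and by 1.06 in the nephron line. Hoxd3 fell by 1.39 ± 0.10 and Pax2, a regulator of ureteric bud outgrowth, by 1.21 ± 0.18. In total RNA 6 of the 24 fell and 2 rose (15.7% of all genes in each direction), and in the nephron line 4 fell and 7 rose (14.7% and 13.8% of all genes).

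Of the vasopressin list, Ptger1, a receptor for prostaglandin E2, fell by 3.08 ± 0.18 in L10a arrays (adjusted p = 7.9e-17), by 1.50 in total RNA and by 0.73 in the nephron line. Slc14a2, the urea transporter of the inner medullary duct, fell by 1.44 ± 0.23 and by 1.12 in total RNA, and was at 0.19 in the nephron line (adjusted p = 0.58). Aqp4, the basolateral water channel beside aquaporin 3, fell by 1.30 ± 0.21 and by 1.42 in total RNA, with -0.41 in the nephron line (adjusted p = 0.13). The CREB-like gene Crebl2 fell by 1.53 ± 0.13, by 0.95 and by 0.70 in the same 3 sets. In total RNA 10 of the 25 fell and 3 rose, and in the nephron line 5 fell and 3 rose.

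Of the aldosterone and ENaC list, Kcnj1, the potassium channel ROMK, fell by 3.59 ± 0.38 in L10a arrays (adjusted p = 3.4e-10), by 2.09 in total RNA and by 1.83 in the nephron line. ROMK also serves the thick ascending limb and is counted in that list too. Klhl3, which directs the breakdown of WNK kinases, fell by 2.00 ± 0.18, by 1.88 and by 1.38. Fkbp5 (1.85 ± 0.40) and Zbtb16 (2.07 ± 0.46), both genes that glucocorticoids are known to induce, rose in L10a arrays. In total RNA they were at 0.65 (adjusted p = 0.18) and 0.72 (0.20), and in the nephron line Zbtb16 rose by 1.33 and Fkbp5 was at 0.18 (0.78). In total RNA 13 of the 27 fell and 2 rose, and in the nephron line 10 fell and 4 rose.

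The osmotic response list had 2 of 7 lower and 2 higher in L10a arrays. The betaine carrier Slc6a12 fell by 1.32 ± 0.25, by 0.72 in total RNA and by 0.79 in the nephron line. Hspa4l, an osmotic stress chaperone, fell by 0.76 ± 0.21 in L10a arrays, was at -0.18 in total RNA (adjusted p = 0.53) and rose by 0.63 in the nephron line. The amino acid carrier Slc38a2 rose by 1.08 ± 0.17, by 1.45 and by 1.44, and the taurine carrier Slc6a6 rose by 0.48 ± 0.18 in L10a arrays, fell by 0.49 in total RNA and was at 0.05 in the nephron line (0.88). Among intercalated cell genes, the ammonia channel Rhcg fell by 2.67 ± 0.31 in L10a arrays, by 1.93 in total RNA and by 1.86 in the nephron line. The proton pump subunit Atp6v1b1 fell by 1.83 ± 0.28, by 1.63 and by 1.81. Dmrt2 fell by 1.47 ± 0.20 in L10a arrays and the bicarbonate carrier Slc4a9 rose by 1.08 ± 0.19, and neither passed in the other 2 sets.

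Without total RNA IRI replicate 3, an alternative chosen after seeing the data, 7 of the vasopressin list fell and 3 rose in total RNA, 11 of the aldosterone and ENaC list fell and 3 rose, and 5 of the lineage list fell and 4 rose. The osmotic list then had 1 lower and 2 higher. Sim1 fell by 0.82 and Slc6a6 was at -0.08 (adjusted p = 0.74) without it, while Kcnj1, Klhl3, Ptger1, Crebl2, Slc14a2, Aqp4, Slc6a12, Slc38a2, Rhcg and Atp6v1b1 passed both with and without it.

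In the other segments the same L10a arrays had 5 of 12 distal convoluted and connecting tubule genes lower, 11 of 12 of the thick ascending limb and 6 of 17 of the proximal tubule, with none higher in these 3 lists. The sodium-calcium exchanger Slc8a1 fell by 1.23, the chloride channel subunit Bsnd by 2.45 and the endocytic receptor Cubn by 2.01. In total RNA these 3 genes fell by 2.02, 2.20 and 1.41. Among podocyte genes Nphs1, which encodes nephrin, rose by 0.80, Foxd1 rose by 0.56 and Tcf21 fell by 0.80. Of 9 urothelial genes 1 rose, Foxa1 (1.46), and 2 fell, Trp63 (-1.04) and Upk3b (-0.79). Of the injury genes Sprr2f (5.68 ± 0.53), Krt20 (5.66 ± 0.39), Sox9 (2.80 ± 0.29) and Havcr1 (2.43 ± 0.74) rose most.

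**Figure D5:**
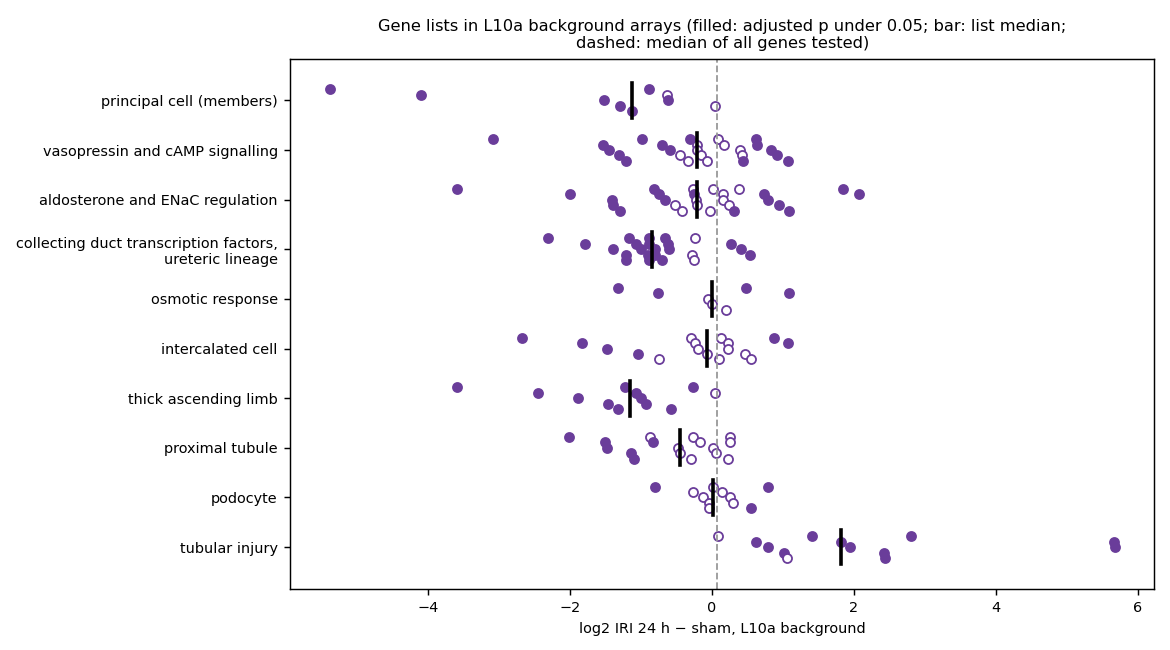
Log2 difference between IRI at 24 h (n = 4) and sham (n = 2) in L10a background arrays for every measured gene of each list (points, filled where the adjusted p was under 0.05), with the list median as a bar and the median of all genes (0.08) as a dashed line. Ranbp3l and Avpr2 lie far left in the principal cell row, and the lineage list is mostly below 0, with a median of -0.84.

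The likeness of other genes to the members was measured as the correlation of 17 TRAP group means with the mean profile of the 9 members, over 6820 genes with a spread of at least 0.5. The points share the L10a groups, which are the extreme of most profiles. The highest were Tmem150c (r = 0.945), Cldn8, a claudin of collecting duct tight junctions (0.935), Scrn1 (0.922), Tjp3, the junction protein ZO-3 (0.917), Prdm16, a transcriptional regulator (0.917), Lratd1 (0.917) and Rnf186, a ubiquitin ligase (0.909). All 7 fell in L10a arrays after IRI, between -2.54 for Rnf186 and -1.23 for Tjp3, and stood 1.39 to 3.44 higher in L10a than in wild-type sham arrays. Their likeness was computed from these same groups.

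The members themselves did not all follow 1 profile. Over the same 17 group means Aqp2 and Fxyd4 correlated at r = 0.945, Scnn1b and Scnn1g at 0.905, and Avpr2 and Hsd11b2 at 0.886. The lowest were Fxyd4 and Ranbp3l (-0.013), Scnn1a and Fxyd4 (0.109), and Aqp2 and Ranbp3l (0.208). Scnn1g was closest to the mean of all 9 (0.951) and Ranbp3l farthest (0.601).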

How the data were processed

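The authors deposited 1 linear probe set intensity per array, and the submitters' processing notes name RMA and Expression Console 1.3.1. Which arrays were normalized together is not given in the sources used here. The plan assumed log2 values, so log2 was taken first. Of 35556 probe sets 21789 carry 1 symbol, and genes with several used the probe set of highest mean.

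limma 3.58.1 (R 4.3.3) fitted 1 coefficient per group to 57 arrays (38 residual degrees of freedom, median residual SD 0.154). The titles call the arrays of every set biological replicates. Their number limits precision. Replicate numbers were not taken to pair the samples in the main fit. The fit was tested on simulated data.

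Named were the 9 members, up to 4 called genes per list by size of change in L10a IRI arrays (1 per segment list in the text; endothelial, interstitial and myeloid markers are given as sums), and the 8 genes of highest likeness, except those known only by a number. Members and lists were chosen with earlier results of these data known. Alternatives were quantile normalization, no filter, an offset of 32, TRAP arrays only, a trended robust fit, another probe set, only the groups compared, a replicate block and leaving out each array. Figures used Python 3.11.15 and matplotlib 3.10.9.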

Additional observations from a re-analysis of the deposited data

Results flagged for a closer look

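The response to IRI differed between the L10a background and other sets for 2 members by the limma test of the difference itself. For Avpr2 (L10a minus the other set, log2) it was -3.16 against the wild-type background, -2.47 against the nephron line, -2.57 against the interstitial line, -2.02 against the endothelial line, -1.51 against the myeloid line and -2.43 against total RNA. For Ranbp3l it was -2.02, -2.87, -2.06, -3.18, -1.84 and -2.62 in the same order. Adjusted p ranged from 3.8e-08 to 0.0038, and in each of these comparisons all IRI arrays lay below all sham arrays on both sides. Such separation was not counted over all genes. Both genes started highest in the L10a sham arrays (11.70 and 11.99 on the log2 scale, against at most 9.58 and 10.91 in the other TRAP sets), and the part of that starting level was not tested. The 12 values share 4 IRI and 2 sham arrays of the L10a set and are not independent, and total RNA has another intensity scale. No single array lay apart from the rest of its group by Dixon's test in the 18 sets tested (9 members in each of the 2 groups of 4 arrays).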

How the results depend on the processing

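Among single member results, 1918 kept their side of the threshold under the alternatives other than leaving out an array, 52 passed only there and 10 no longer passed. These counts include the alternative of another probe set. It could not change a member's fold change, since each member has only 1 probe set. A value that passed in neither fit could change sign and still count as kept. Scnn1a after IRI in the L10a set, for example, ran from -0.20 to 0.28 over all alternatives. With 1 array left out the counts were 1760, 13 and 45, and no called value changed its sign. The 7 IRI comparisons at 24 h kept their count of called members within 1.5 times, except total RNA fitted alone (2 called, 6 in the full fit). Without single arrays these counts ran from 5 to 7 in the L10a set, 3 to 4 in the wild-type set, 5 to 6 in total RNA, 5 to 5 in the nephron line, 4 to 5 in the interstitial, 3 to 5 in the endothelial and 7 to 9 in the myeloid line. At 4 h the nephron count went from 0 to 1 with TRAP arrays only and to 5 with only the groups compared. Sham against no surgery, 0 in all lines, went to 1 in the nephron line with only the groups compared. In the endothelial line it went to 1 with the offset and to 2 with TRAP arrays only, and ran from 0 to 2 without single arrays. In the myeloid line it went to 1 with the offset, with TRAP arrays only and with only the groups compared. Against wild-type sham arrays, the nephron count of 1 became 2 with quantile normalization or TRAP arrays only, 6 with only the groups compared and 0 without any single array. The interstitial count of 2 became 4 with only the groups compared and ran from 0 to 2 without single arrays, and the myeloid count of 7 ran from 4 to 7. The response difference between the L10a set and the myeloid line had 4 members with TRAP arrays only and 5 with only the groups compared, against 2. Over all genes, fitting only the groups compared moved the calls from 6072 to 681 in total RNA and from 3545 to 5561 at 4 h. Against wild-type sham arrays they went from 9320 to 10547 (nephron) and from 8107 to 8882 (interstitial). For the L10a and myeloid response difference they went from 3359 to 5743.

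The labels number replicates alike in each group. In no comparison with 3 pairs was every correlation of the deviations of same-numbered arrays above 0.1 (from -0.58 to 0.51). All were positive for nephron IRI at 24 h against sham (0.03 to 0.11). The same held for sham against no surgery in the nephron (0.09 to 0.29) and interstitial (0.004 to 0.46) lines. So few pairs cannot exclude a pairing. With a replicate block 6 members fell in the L10a set and 2 were called in endothelial sham against no surgery and 1 in myeloid. Without L10a sham replicate 1, 4944 of all genes were called in that set against 7419. The files used here give no signal over background, so the size of a change that ends near the array median, as for Avpr2 and Ranbp3l after IRI, is uncertain.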
